A study of Mus musculus with 13 samples.

Results

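Male primordial germ cells carrying the Tet1-V allele were compared with male primordial germ cells of the Tet1 knockout, called V and KO. The comparison took 3 V and 3 KO libraries, chosen by the genotype in their labels, which is 6 of the 13 samples of the series. The question is what differs in the transcripts of these cells between an altered TET1 protein and a knockout of the gene. Mouse embryos at E14.5 were the source, and Oct4-GFP, a fluorescent reporter driven by control sequences of the germ cell gene for OCT4, served to sort the cells. RNA from 5000 sorted cells per sample was captured on oligo-dT beads, which enriches polyadenylated transcripts, and was sequenced. V is known for a TET1 protein that stalls after its opening oxidation step, at 5-hydroxymethylcytosine. KO is the knockout, and both carried the reporter. The other genotypes are HxD, known for a catalytically inactive TET1 protein, and WT, the wild type, and their 3 libraries each entered the fit and are given as levels. The labels give no strain, zygosity, litter or pooling of embryos and do not say which part of Tet1 the knockout lacks. Nothing in them says that replicates came from separate embryos, so the p-values reflect sample-to-sample spread that could be technical alone.

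TET1 is a dioxygenase that oxidises 5-methylcytosine in DNA to 5-hydroxymethylcytosine and, in further steps, to 5-formylcytosine and 5-carboxylcytosine. The later products can be cut out by the glycosylase TDG and replaced through base excision repair, whereas 5-hydroxymethylcytosine can be lost by dilution when DNA is copied. Primordial germ cells erase most of their DNA methylation, parental imprints included. Germ cell genes with CpG-dense promoters, such as Dazl and Mael, are among those whose promoters become demethylated in these cells. At this stage male germ cells leave the cell cycle and take up the male programme.

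CpG dinucleotides are where TET1 finds its substrate, and sequences before the starts of 3 genes described in the following paragraphs are shown for that reason. They are Uchl1, which differed between V and KO, and the germ cell genes Mael and Dazl, for which no difference was called. Each window is the 250 bases before the RefSeq transcript start in GRCm38.p6, written 5′ to 3′ on the gene's strand, with CpG in capitals. The windows are chr5:66675871-66676120 on the plus strand for Uchl1, chr1:166238745-166238994 on the minus strand for Mael and chr17:50293621-50293870 on the minus strand for Dazl. The RefSeq starts lie inside the GENCODE M21 gene models, so the last 30 bases of the Uchl1 window, with 1 of its CpG, the last 3 of the Mael window and the last 16 of the Dazl window overlap those models.
Uchl1: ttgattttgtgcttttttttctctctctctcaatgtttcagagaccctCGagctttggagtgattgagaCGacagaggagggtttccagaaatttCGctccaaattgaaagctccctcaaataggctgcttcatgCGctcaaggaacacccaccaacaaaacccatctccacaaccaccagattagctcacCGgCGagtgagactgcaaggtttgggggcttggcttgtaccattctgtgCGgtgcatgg
Mael: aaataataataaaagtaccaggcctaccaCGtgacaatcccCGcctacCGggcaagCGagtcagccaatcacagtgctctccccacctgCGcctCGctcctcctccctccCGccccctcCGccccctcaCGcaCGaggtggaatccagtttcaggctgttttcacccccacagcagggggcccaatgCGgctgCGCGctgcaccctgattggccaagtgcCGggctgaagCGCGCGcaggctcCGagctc
Dazl: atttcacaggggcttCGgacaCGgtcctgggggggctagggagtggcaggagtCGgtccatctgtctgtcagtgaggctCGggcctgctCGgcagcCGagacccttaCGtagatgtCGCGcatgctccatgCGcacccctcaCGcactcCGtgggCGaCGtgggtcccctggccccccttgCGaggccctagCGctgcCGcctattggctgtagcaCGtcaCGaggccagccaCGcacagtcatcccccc
The Uchl1 window holds 7 CpG, against 18 for Mael and 20 for Dazl. The median over 32851 RefSeq windows of this length was 6, and 46.3%, 21.7% and 17.9% of windows held at least as many as Uchl1, Mael and Dazl. Both strands were also searched for CACGTG, the E-box bound by the MGA-MAX pair of the germline gene repressor PRC1.6, and for GCGGGAA, a motif of E2F6 in the same complex. The Mael window holds 1 CACGTG and the Uchl1 and Dazl windows hold 0. None of these 3 windows holds GCGGGAA. Over all windows, 6.02% hold CACGTG and 3.82% hold GCGGGAA.

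Library totals were 22220736, 22238389 and 13584484 counts in V and 22661016, 20842705 and 25828183 in KO. V 3 is the shallowest of the 6 libraries and V 2 the one with the most genes detected, 15715. The defining germ cell genes were present in all 6: summed over 12 identity genes, levels were 4547 to 4745 CPM (counts brought to equal library size, with TMM factors) in V and 4190 to 4641 CPM in KO. Y-linked genes summed to 299.7 to 416 CPM in V and 349 to 412 CPM in KO. On the third principal component of all 12 libraries, with 13.7% of the variance, V 3 stood at 54.6, against -16.3 to -5.8 for the other V and the KO libraries. On the first, with 25.8% of the variance, WT 3 stood at 93.4, against -15.4 to 2.5 for all other libraries. WT 3 also had the fewest genes detected, 11529, and 0 counts for 104 of the 9250 genes averaging at least 8 CPM. It enters the shared fit and every WT mean given below. V 2 carried more RNA of Sertoli cell markers, genes of the somatic cells that surround germ cells. The 16 markers summed to 192, 680 and 204 CPM in V, against 177, 244 and 184 CPM in KO, and 13 of 14 tested markers had a positive log2 difference. Dmrt1 alone was at 163, 154 and 144 CPM in V and 128, 146 and 134 CPM in KO. It made up most of each sum except that of V 2, so the sums understate the V 2 excess in the other markers. Amh, the Sertoli hormone, was at 216 CPM in V 2 and at 3.40 to 30.9 CPM in the other 5 libraries. The 12 macrophage markers summed to 9.2, 42.7 and 7.1 CPM in V, against 1.8, 3.8 and 0 CPM in KO. Csf1r and Ptprc, which define macrophages and blood cells, were at 0 in those 5 libraries. In bulk libraries fewer cells of a type and less RNA per cell cannot be told apart. The part of V 2 in the results was not tested, and the calls made without it are given with the ranked genes.

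Between V and KO, 3 of 14702 genes tested were called, and all 3 were higher in V. They were Tet1 itself, the spermatogonial gene Uchl1 and the hypoxia-inducible factor gene Epas1. A gene that was not called may still differ. In the edgeR fit of all 12 libraries, 0 genes were called lower in V, with 266 lower at an unadjusted p under 0.05. DESeq2 called 20 lower, some of them at extreme folds, such as Ffar4 (log2 fold change -22.2). Under other settings edgeR called 9 lower without V replicate 2, 6 without the low-count filter, 6 with a replicate block, 3 without KO replicate 2 and 1 each without V replicate 1 and without WT replicate 3. The 3 calls are 0.0204% of all genes tested, at an edgeR adjusted p under 0.05. A total of 337 genes (2.29%) were higher and 266 (1.81%) lower past an unadjusted threshold of 0.05, and 603 (4.1%) passed it in either direction. For 757 genes (5.15%) every V library lay above every KO library, and for 763 (5.19%) every V library lay below. The median log2 fold change over all genes was 0.01.

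**Figure D1:**
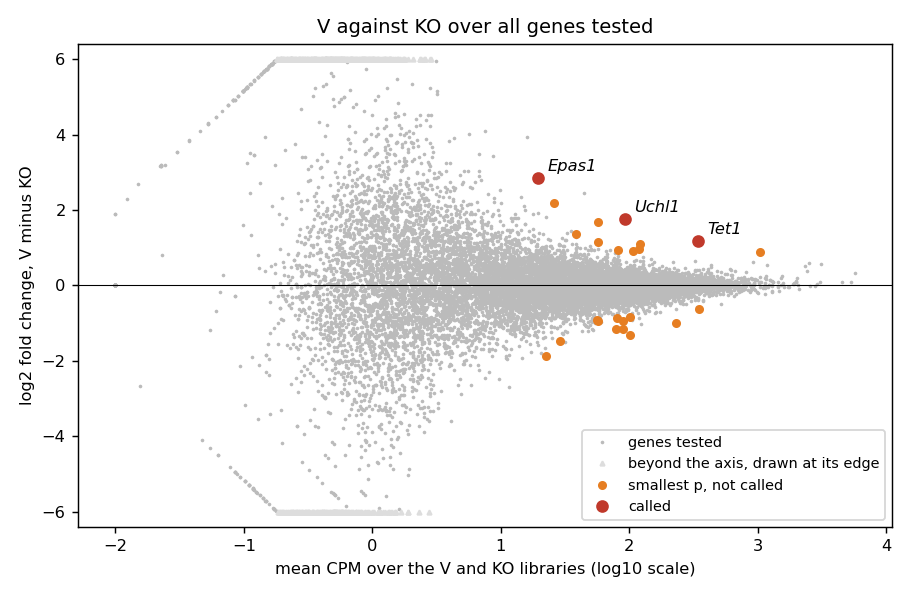
Each point is 1 of the 14702 genes tested. The horizontal axis is its mean level over the V and KO libraries in CPM, as log10, and the vertical axis its log2 fold change, V minus KO, with 534 genes beyond 6 drawn at the edge. Tet1, Uchl1 and Epas1, in red, are the called genes, the other ranked genes are orange, and folds spread widely below about 10 CPM.

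Tet1 (chromosome 10, 62804570 to 62908996, minus strand, GRCm38, GENCODE M21) had 364, 450 and 625 CPM in V, against 213, 201 and 225 CPM in KO. All V libraries lay above all KO libraries, and V spread far more than KO. The mean was 480 ± 133 CPM in V and 213 ± 11.8 CPM in KO (SD, n = 3 each), a log2 fold change of 1.17 (SE 0.17, 95% interval 0.82 to 1.53, edgeR adjusted p = 0.00222). HxD averaged 626 CPM and WT 608 CPM. Reads therefore remained over the gene in KO, and whether they come from a part the knockout retains is not given in the labels. The gene overlaps the gene models Gm26479 and Gm48353 on its own strand. The call ended when only the V and KO libraries were fitted (log2 fold change 1.18, edgeR adjusted p = 0.355), a fit that called 0 genes, with 589 at an unadjusted p under 0.05.

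Uchl1 encodes a ubiquitin hydrolase used as a marker of spermatogonia, the cells that male germ cells form after birth. It lies on chromosome 5, 66676091 to 66687234, plus strand, in GENCODE M21, and the window before its RefSeq start is printed above. Levels were 224, 81.6 and 121 CPM in V, against 52.2, 47.0 and 27.5 CPM in KO. The groups did not overlap, with V 1 highest and V 2 nearest to KO. The gene rose by a log2 fold change of 1.75 (SE 0.28, 95% interval 1.19 to 2.32, edgeR adjusted p = 0.0038), or 3.37-fold. HxD averaged 93.6 CPM and WT 159 CPM. The antisense gene Uchl1os overlaps Uchl1 and had raw counts of 109, 9 and 0 in V and 0 in every KO library, against 5015, 1804 and 1648 raw counts of Uchl1 in V. Whether counting used the strand is not given in the sources used here, so their reads cannot be told apart.

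Epas1 encodes HIF-2alpha, an oxygen-regulated transcription factor, and lies on chromosome 17, 86753700 to 86833410, plus strand, where the gene model AC096777.1 overlaps it on the same strand. It had 47.8, 18.0 and 37.5 CPM in V, against 1.41, 6.16 and 6.72 CPM in KO. Every V library was higher than every KO library, and V 2 was again the lowest of the V libraries. The gene rose 7.21-fold (log2 fold change 2.85, SE 0.50, 95% interval 1.82 to 3.88, edgeR adjusted p = 0.0164). HxD averaged 24.2 CPM and WT 43.7 CPM. Its call is the least stable of the 3, and ended without V replicate 3 (edgeR adjusted p = 0.0587), without KO replicate 1 (edgeR adjusted p = 0.0754) and with a stricter filter (edgeR adjusted p = 0.0514). Uchl1 and Epas1 were also not called with V and KO libraries alone (edgeR adjusted p = 0.635 for Uchl1 and 0.666 for Epas1).

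**Figure D2:**
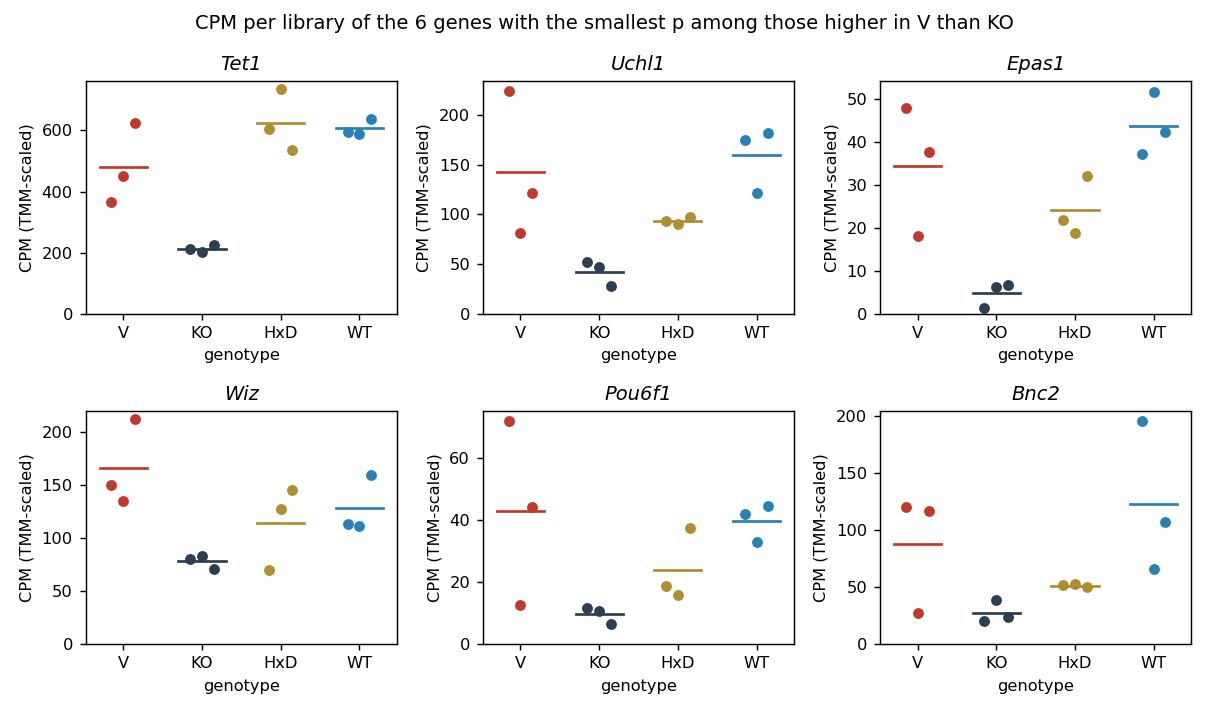
CPM per library, with a line at the mean, for the 6 genes with the smallest p among those higher in V. Each point is 1 library, genotypes run along the horizontal axis, and the vertical axes start at 0. For Tet1, Uchl1 and Epas1, the called genes, the V means of 480, 142 and 34.4 CPM lie above the KO means of 213, 42.2 and 4.76 CPM. V 2, the middle V point, is close to KO for Pou6f1 and Bnc2.

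The WT levels place the 3 called genes, and they include WT 3, which stood apart on the first principal component. The differences of V and of KO from WT share the WT libraries, and each is given from the same fit. Tet1 stood at -0.34 in V minus WT (95% interval -0.69 to 0.01) and -1.51 in KO minus WT, on the log2 scale. Uchl1 stood at -0.16 in V minus WT (95% interval -0.71 to 0.39) and -1.92 in KO minus WT. Epas1 stood at -0.34 in V minus WT (95% interval -1.30 to 0.61) and -3.20 in KO minus WT. In each of the 3 genes the V interval includes 0, and the wide intervals leave room for moderate differences from WT.

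Beyond the 3 called genes, the ranking took the 12 smallest p higher in V and the 12 lower in V, and the other 21 of these 24 were not called. Those with higher values in V include transcription factors. Wiz, a zinc finger partner of the histone H3K9 methyltransferases G9a and GLP, had 150, 135 and 213 CPM in V, against 80.0, 83.5 and 70.5 CPM in KO (log2 fold change 1.09, SE 0.24, edgeR adjusted p = 0.237). Pou6f1, a POU homeobox factor, had 71.7, 12.4 and 44.3 CPM in V, against 11.6, 10.7 and 6.26 CPM in KO (log2 fold change 2.17 with an SE of 0.49, edgeR adjusted p = 0.264). The Wiz groups are well apart, while for Pou6f1 V 2 is barely above KO 1. Bnc2, a zinc finger protein needed for male germ cell development in mice, had 120, 26.7 and 117 CPM in V, against 19.9, 38.5 and 23.2 CPM in KO (log2 fold change 1.69, SE 0.39, edgeR adjusted p = 0.264). Its groups overlap through V 2. Tgif1, a homeobox repressor of SMAD-driven transcription, had 88.5, 52.2 and 95.5 CPM in V and 28.8, 45.2 and 32.3 CPM in KO (edgeR adjusted p = 0.285).

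Other genes in this ranking serve metabolism, signalling and adhesion. Shmt2, the mitochondrial serine hydroxymethyltransferase, had 161, 127 and 128 CPM in V and 75.5, 77.7 and 69.0 CPM in KO, a log2 fold change of 0.90. Kndc1, a Ras exchange factor, had 106, 81.4 and 135 CPM in V and 54.6, 54.9 and 57.6 CPM in KO, a log2 fold change of 0.95. KO libraries were within a narrow range for both. Mapk13, the kinase p38 delta, averaged 159 ± 53.1 CPM in V and 81.0 ± 22.5 CPM in KO (SD, n = 3 each). Mcam, the adhesion molecule CD146, averaged 55.8 ± 7.87 CPM in V and 21.7 ± 8.12 CPM in KO (SD, n = 3 each). The ribosomal stalk gene Rplp0 had 1642.5, 1413 and 1022 CPM in V, against 517, 1045 and 657 CPM in KO (log2 fold change 0.88), so V 3 and KO 2 overlap. Genes for ribosomal proteins have many processed pseudogenes, so reads could be split between copies. The edgeR adjusted p of these 5 genes was 0.285 each.

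Genes with the smallest p among those lower in V include several of the cytoskeleton and cell surface, none of them called. Mfge8, a secreted protein that bridges phosphatidylserine and integrins, had 155, 192 and 115 CPM in V, against 269, 298 and 356 CPM in KO (log2 fold change -0.997 with an SE of 0.23, edgeR adjusted p = 0.264). The groups lie far apart, and Mfge8 was called when WT replicate 3 was left out of the shared fit (edgeR adjusted p = 0.0294). Fscn1, which bundles actin filaments, had 49.8, 88.3 and 34.9 CPM in V, against 154, 137 and 143 CPM in KO (log2 fold change -1.33, edgeR adjusted p = 0.285). Pls3, another actin-bundling protein, had 36.3, 70.5 and 60.8 CPM in V, against 163, 101 and 106 CPM in KO (log2 fold change -1.14, edgeR adjusted p = 0.285). In all 3 genes every V library lay below every KO library and V 2 was the V library nearest to KO. Mmp15, a membrane-bound matrix protease, averaged 72.9 ± 11.9 CPM in V and 130 ± 4.16 CPM in KO (SD, n = 3 each). Grn encodes progranulin, a protein of lysosomes and the cell surroundings. It had 246, 332 and 244 CPM in V, against 415, 406 and 459 CPM in KO (log2 fold change -0.64, edgeR adjusted p = 0.378).

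The remaining 7 of these 12 genes had log2 fold changes of -1.88 to -0.85 and edgeR adjusted p of 0.378 to 0.686. Stard10, a phospholipid transfer protein, had 11, 14.2 and 3.82 CPM in V, against 45.3, 33.6 and 27.9 CPM in KO. Myo5b, a motor of recycling endosomes, had 20.9, 18.0 and 6.75 CPM in V, against 56.8, 37.0 and 34.5 CPM in KO. V 3, the shallowest library, is lowest for both. Efr3b, a membrane anchor of a lipid kinase, averaged 49.4 ± 13.2 CPM in V and 109 ± 20.1 CPM in KO (SD, n = 3 each). The transcription factor gene Klf8 averaged 61.7 ± 14.7 CPM in V and 118 ± 33.4 CPM in KO, and the collagen lysyl hydroxylase gene Plod1 38.6 ± 6.68 CPM in V and 73.1 ± 13.3 CPM in KO (SD, n = 3 each). Spats2 averaged 57.3 CPM in V and 104 CPM in KO, and Cmip 38.9 CPM in V and 75.4 CPM in KO. In each of these 7 genes all V libraries lay below all KO libraries.

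**Figure D3:**
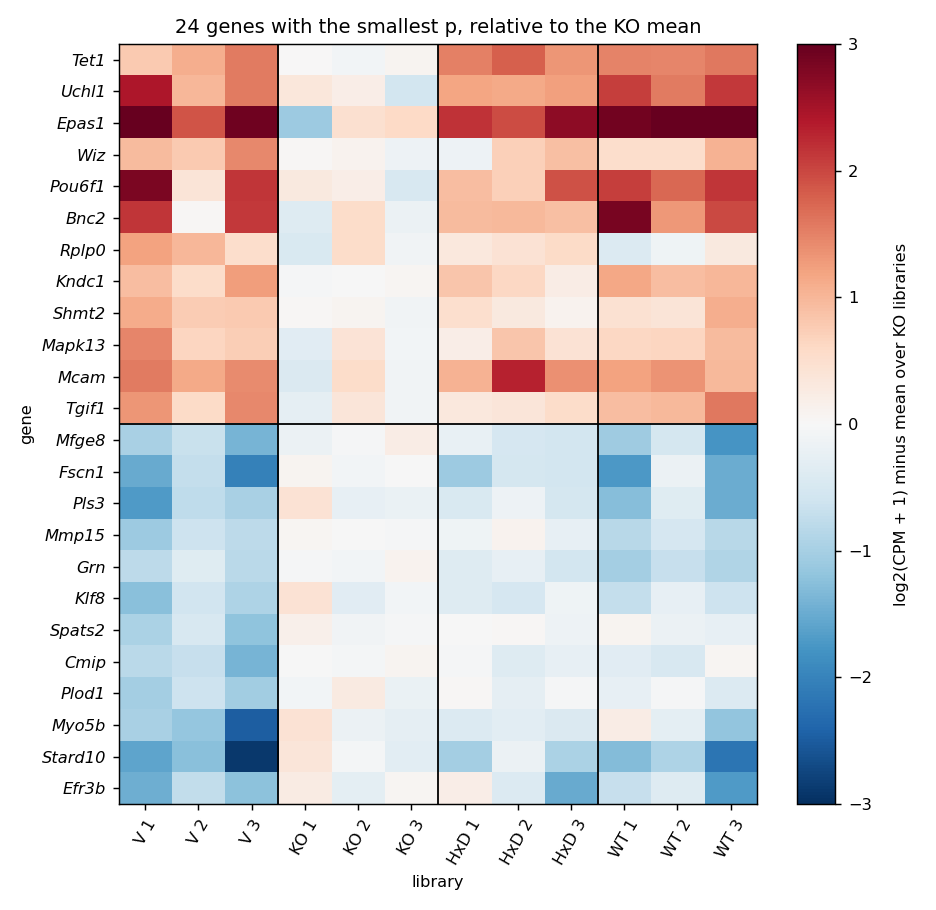
Rows are the 24 ranked genes, 12 higher in V above the line and 12 lower below it, and columns are the 12 libraries. Colour is log2(CPM + 1) minus the mean over the KO libraries, cut at 3. Among the V columns V 2 is the palest in most rows, and the WT columns share the V colour in many rows. Exceptions include Rplp0, Spats2, Cmip, Plod1 and, apart from WT 3, Myo5b.

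Across these 24 genes V 2 was the V library nearest to KO in 21 genes, V 1 in 2 and V 3 in 1. The farthest from KO was V 1 in 12 genes and V 3 in 12. Without V replicate 2, edgeR called 18 genes, 9 higher and 9 lower in V, among them 12 of the 24. Mfge8 (log2 fold change -1.19), Fscn1 (-1.77), Pls3 (-1.35), Bnc2 (2.12), Pou6f1 (2.61), Wiz (1.22), Tgif1 (1.38), Mapk13 (1.12) and Kndc1 (1.11) were then called beside Tet1, Uchl1 and Epas1. The edgeR adjusted p of these 9 genes without V replicate 2 was 5.27e-05 to 0.0464. Without KO replicate 2 the count was 16, and without V replicate 1 it was 7. DESeq2 called 88 genes, including 19 of the 24, and edgeR called 21 genes without the low-count filter, including 16 of the 24. Many of the other DESeq2 calls had extreme log2 fold changes, such as A730049H05Rik (21.8), which was at 0 in every KO library.

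The ranked genes differ in where V stands beside WT. For Mfge8, Tgif1 and Kndc1, V minus WT was 0.05, -0.04 and -0.10 on the log2 scale, and KO minus WT 1.05, -1.19 and -1.05. The 95% interval of V minus WT was -0.41 to 0.51 for Mfge8. For Rplp0, V minus WT was 0.99 (95% interval 0.58 to 1.41) and KO minus WT 0.12. For Spats2, Cmip, Plod1 and Myo5b, V minus WT was -0.75, -0.71, -0.68 and -1.13, with intervals below 0, and KO minus WT was 0.11, 0.24, 0.24 and 0.36. These paired values share the WT libraries, and V minus KO is their difference.

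Beyond Rplp0, Grn and Mfge8, the most abundant genes with an unadjusted p under 0.01 had modest log2 differences, and none was called. Pou5f1 encodes OCT4, the pluripotency factor whose control sequences drive the sorting reporter. It had 529, 591 and 430 CPM in V, against 398, 325 and 348 CPM in KO (log2 fold change 0.53 with an SE of 0.17, edgeR adjusted p = 0.744), and averaged 464 CPM in HxD and 316 CPM in WT. All V libraries were above all KO libraries. H3f3b, a gene for histone H3.3 with processed pseudogenes, averaged 699 ± 106 CPM in V and 517 ± 43.7 CPM in KO, and the cytoskeletal linker Dst 508 ± 114 CPM in V and 362 ± 12.6 CPM in KO (SD, n = 3 each). Jak1, the cytokine receptor kinase, had 132, 193 and 215 CPM in V and 323, 209 and 305 CPM in KO, a log2 fold change of -0.63 with overlapping groups. Pecam1, an adhesion molecule of endothelial cells and germ cells, had 119, 155 and 126 CPM in V and 201, 176 and 273 CPM in KO (log2 fold change -0.70, edgeR adjusted p = 0.686). The 10 endothelial markers summed to 147 to 182 CPM in V and 208 to 306 CPM in KO, and Pecam1 made up most of each sum. Of 8 tested endothelial markers 4 had a positive log2 fold change, and the median was -0.02. Cdh5, which defines endothelium, was at 0 to 0.95 CPM in V and 0 to 2.21 CPM in KO. The marker Cldn5 had 30.1, 11.7 and 14.3 CPM in V and 2.08, 17.7 and 16.8 CPM in KO. Egfl7 had 23.8, 6.11 and 6.24 CPM in V and 4.37, 17.7 and 9.66 CPM in KO. For Cldn5 and Egfl7 the groups overlap and V 1 was the highest library.

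Germ cell genes with methylation-controlled promoters had 36 tested members, of which 0 were called, 6 were higher and 0 lower past the unadjusted threshold. Their median log2 fold change was 0.07, against 0.01 over all genes, and 19 of 36 were positive, against 7436 of 14702 over all genes. Past the unadjusted threshold, 2.29% of all genes were higher and 1.81% lower, and the list counts here and below stand beside these shares. Dazl, which binds germ cell mRNAs and is named here after its values were seen, had 1015, 672 and 1172 CPM in V, against 757, 1071 and 720 CPM in KO. The groups overlap, and the log2 fold change was 0.17 (SE 0.19, 95% interval -0.22 to 0.55, edgeR adjusted p = 1). WT averaged 1754 CPM, so V minus WT was -0.88 (95% interval -1.27 to -0.49) and KO minus WT -1.05. Mael, a piRNA pathway gene, had 31.0, 34.9 and 52.9 CPM in V, against 9.54, 23.9 and 32.9 CPM in KO. KO 3 overlaps V 1, the log2 fold change was 0.84 (SE 0.37, 95% interval 0.07 to 1.602, edgeR adjusted p = 1), and HxD averaged 16.3 CPM and WT 121 CPM. V minus WT was -1.61 for Mael (95% interval -2.39 to -0.84) and KO minus WT -2.45. Both promoters are printed above, with 20 CpG for Dazl and 18 for Mael.

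Of the germ cell genes, 4 more are given for their levels beside WT, and each of these 4 had a mean in V between those of KO and WT. They were named for a small p of V against KO or after their values were seen. Their shared position is therefore not evidence about the lists they come from. Tdrd1, a Tudor protein of the piRNA pathway also named after its values were seen, had 41.1, 28.6 and 76.1 CPM in V, against 14.53, 21.4 and 44.1 CPM in KO, and averaged 113 CPM in WT (log2 fold change 0.86, edgeR adjusted p = 1). Ddx4, the germ cell RNA helicase, had 624, 613 and 874 CPM in V, against 539, 591 and 465 CPM in KO (log2 fold change 0.40, edgeR adjusted p = 1). The Tdrd1 groups overlap, and the Ddx4 groups do not. Slc25a31, a testis ADP/ATP carrier, had 89.0, 53.5 and 85.6 CPM in V, against 15.9, 68.6 and 22.0 CPM in KO (log2 fold change 1.10). Sycp2, a synaptonemal complex protein, had 51.4, 22.6 and 57.6 CPM in V, against 18.2, 19.97 and 18.9 CPM in KO (log2 fold change 1.21). For Slc25a31 the high library is KO 2, and it was called without KO replicate 2 (edgeR adjusted p = 0.00106).

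**Figure D4:**
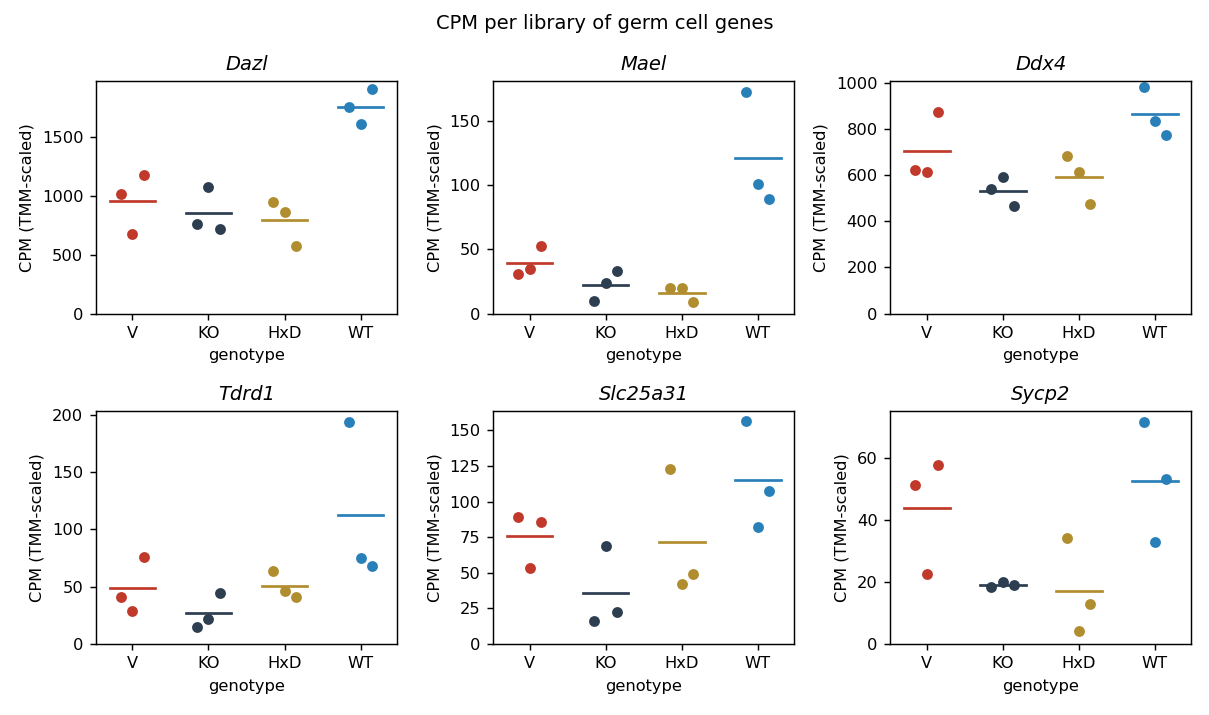
CPM per library for 6 germ cell genes, with a line at the mean, genotype along the horizontal axis and vertical axes from 0. The V and KO means of Dazl, 953 and 849 CPM, both lie below the WT mean of 1754 CPM, and those of Mael, 39.6 and 22.1 CPM, lie below 121 CPM. For Ddx4 and Sycp2 all V points lie above all KO points.

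The germ cell lists share members, so their counts are not independent. Ddx4 counts as higher in the lists of piRNA and germ granules, male germ cell fate and germ cell identity. Sycp2 counts in both the methylation-controlled and the meiotic list. The piRNA and germ granule list had 24 tested genes, with 4 higher and 0 lower past the unadjusted threshold. Its median log2 fold change was 0.20 (0.03 without KO replicate 1). Piwil2, the main PIWI protein of these cells, had 137, 197 and 201 CPM in V and 175, 166 and 188 CPM in KO, a log2 fold change of 0.02. Meiotic entry and recombination had 32 tested genes, 3 higher and 0 lower, and a median of 0.33 (0.08 without V replicate 3). Rbm44, a protein of the intercellular bridges, had 75.3, 104 and 105 CPM in V, against 61.9, 64.0 and 44.9 CPM in KO (log2 fold change 0.73, edgeR adjusted p = 0.744), with no overlap. Sycp3 and Stra8, meiotic genes, were at 2.94 to 15.7 and 0 to 1.63 CPM in V, against 8.78 to 14 and 0 to 4.09 CPM in KO. Male germ cell fate had 25 tested genes, 3 higher and 1 lower, with a median of 0.14. The X-linked homeobox gene Rhox9 was the lower member (59.1, 129 and 67.0 CPM in V, against 217, 94.4 and 155 CPM in KO, edgeR adjusted p = 1). Its groups overlap, and it belongs to a multigene family whose copies can share reads. Nanos2, which marks male fate, had 7.78, 0 and 13.9 CPM in V and 0.97, 0 and 1.30 CPM in KO, with V 2 as low as KO (edgeR adjusted p = 1).

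The spermatogonia list held 27 tested genes, 2 of them called, Uchl1 and Epas1, with 7 higher and 1 lower past the unadjusted threshold. Its median log2 fold change was 0.69, or 0.22 without KO replicate 3, and 19 of 27 were positive, against 7436 of 14702 over all genes. Uchl1, Epas1, Bnc2 and Sgk3 entered this list with their earlier results in these data known, so the count is not independent evidence. Sgk3, a kinase related to AKT, had 52.7, 49.6 and 54.5 CPM in V, against 24.03, 22.0 and 27.3 CPM in KO (log2 fold change 1.09, SE 0.28). Its libraries were tight in both groups, and DESeq2 called it (adjusted p = 0.00253) while edgeR did not. Itga6, the alpha 6 integrin, had 13.5, 58.6 and 42.4 CPM in V and 8.26, 31.2 and 15.3 CPM in KO. Kit, the stem cell factor receptor, had 262, 540 and 495 CPM in V and 769, 446 and 597 CPM in KO (log2 fold change -0.48), so the groups overlap. Sgk3 and Itga6 were named after their values were seen.

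Germ cell identity had 12 tested genes, 2 higher and 1 lower past the unadjusted threshold, and a median log2 fold change of 0.02. Dppa3, which protects DNA methylation in the early embryo, averaged 791 ± 209 CPM in V and 702 ± 11.9 CPM in KO (SD, n = 3 each). Pluripotency had 30 tested genes with 2 higher, 0 lower and a median of 0.01. Nanog averaged 148 ± 24.5 CPM in V and 164 ± 18.7 CPM in KO, and Sox2 265 ± 49.9 CPM in V and 291 ± 16.3 CPM in KO (SD, n = 3 each). Klf2, a transcription factor of naive pluripotency, had 61.3, 54.2 and 32.7 CPM in V, against 22.8, 42.7 and 22.5 CPM in KO (log2 fold change 0.75, edgeR adjusted p = 1). Dppa3, Nanog and Sox2 were chosen as familiar members, outside the ranking.

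Apart from Tet1, the DNA methylation machinery held no called gene. Among 13 TET enzymes and cofactors, the median log2 fold change was -0.00. Tet2 had 15.1, 20.6 and 18.5 CPM in V, against 13.96, 13.8 and 13.5 CPM in KO, and Tet3 had 5.86, 11.4 and 6.53 CPM in V, against 3.93, 4.37 and 1.49 CPM in KO. Every V library lay above every KO library for both, but the log2 fold changes of 0.39 (95% interval -0.67 to 1.45) and 1.28 (95% interval -2.27 to 4.83) had edgeR adjusted p of 1. Ogt, a glycosyltransferase that binds TET1, averaged 188 ± 27.6 CPM in V and 199 ± 16.1 CPM in KO, and its partner Sin3a 390 ± 57.2 CPM in V and 339 ± 10.7 CPM in KO (SD, n = 3 each). Of 7 DNA methyltransferase and UHRF genes, 1 was higher at an unadjusted p under 0.05. Uhrf1, which recruits DNMT1 to copied DNA, had 105, 54.4 and 94.0 CPM in V, against 35.5, 70.1 and 43.6 CPM in KO (log2 fold change 0.77, SE 0.28, edgeR adjusted p = 1). KO 2 lies above V 2, so the groups overlap. Dnmt1, the maintenance methyltransferase, averaged 751 ± 116 CPM in V and 705 ± 105 CPM in KO (SD, n = 3 each).

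The 20 genes of TDG and base excision repair, which act on the oxidation products that V is known to form poorly, had 0 members past an unadjusted p of 0.05 and a median log2 fold change of -0.03. Tdg had 23.0, 16.0 and 11.6 CPM in V and 6.27, 16.3 and 20.2 CPM in KO, with overlapping groups. Of the repressive complexes, PRC1.6 (12 genes) and PRC2 (11 genes) also had 0 members past it, with medians of 0.05 each. H3K9 methylation and KAP1 silencing (15 genes) had 1, Morc3, with 189, 183 and 194 CPM in V and 141, 149 and 137 CPM in KO (log2 fold change 0.41, edgeR adjusted p = 1). The 11 methyl-CpG readers had 1 higher, again Uhrf1, and a median of -0.03.

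Imprinted genes had no called member. At paternally methylated loci, 8 tested genes had 0 past an unadjusted p of 0.05 and a median log2 fold change of 0.59, or 0.18 without V replicate 1. H19, the maternally expressed RNA of the Igf2 locus, had 74.2, 40.2 and 65.4 CPM in V and 39.0, 52.9 and 48.1 CPM in KO, and Igf2 7.02, 5.97 and 11.96 CPM in V and 3.53, 6.16 and 0 CPM in KO. Both pairs of groups overlap. Of 26 paternally expressed genes 0 were higher and 1 lower, the amino acid transporter gene Slc38a4 (20.5, 35.5 and 13.1 CPM in V, against 66.6, 32.0 and 41.4 CPM in KO). Of 27 maternally expressed genes 1 was higher and 1 lower. They were Tssc4 (log2 fold change 0.81, all V above all KO) and Ppp1r9a (-1.25, overlapping). The 95% interval for Peg3, a paternally expressed zinc finger gene named after its values were seen, was -0.07 to 0.86 around a log2 fold change of 0.40.

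In Nodal, Activin and BMP signalling, 0 of 24 tested genes were higher and 3 lower past the unadjusted threshold, and 6 had every V library below every KO library. The median log2 fold change was -0.06. Over all genes, 1.81% were lower past that threshold, and 5.19% had every V library below every KO library. Smad3, which carries the Nodal and Activin signal to the nucleus, had 19.3, 37.1 and 29.7 CPM in V, against 53.4, 62.9 and 45.1 CPM in KO (log2 fold change -0.91, SE 0.32). The inhibitory SMAD gene Smad7 had 62.2, 98.2 and 47.0 CPM in V, against 99.0, 130 and 103 CPM in KO (log2 fold change -0.67). The receptor gene Acvr1b, named after its values were seen, had 44.6, 45.6 and 18.6 CPM in V, against 75.1, 53.2 and 68.6 CPM in KO (log2 fold change -0.85). These 3 had an edgeR adjusted p of 1 each. The ligand gene Nodal had 81.5, 85.4 and 47.3 CPM in V and 83.8, 87.1 and 60.6 CPM in KO, and the feedback inhibitor Lefty2 466, 583 and 542 CPM in V and 688, 626 and 599 CPM in KO. Of 18 Notch genes 1 was higher, the ligand gene Dll3 (42.4, 13.8 and 30.4 CPM in V, against 13.1, 10.9 and 8.97 CPM in KO). Notch1 had 17.5, 40.6 and 29.8 CPM in V, against 71.2, 42.0 and 52.2 CPM in KO, and averaged 9.74 CPM in WT. Of 14 retinoic acid genes 0 were higher and 1 lower, the receptor gene Rxra (15.7, 22.3 and 22.9 CPM in V, against 40.8, 47.4 and 34.2 CPM in KO).

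Cell cycle genes were close to the level of all genes. DNA replication (38 genes) and mitosis (36 genes) had 0 members past an unadjusted p of 0.05, with medians of -0.03 and 0.04. Of 22 genes of G1 arrest, the state male germ cells enter, 1 was higher and 1 lower. Cdk6, a G1 kinase, had 45.8, 38.6 and 69.7 CPM in V, against 16.9, 17.6 and 21.9 CPM in KO (log2 fold change 1.45, SE 0.44, edgeR adjusted p = 0.744). Rb1, the retinoblastoma protein that restrains entry into S phase, had 46.1, 47.5 and 61.6 CPM in V, against 69.7, 70.4 and 80.6 CPM in KO (log2 fold change -0.51, edgeR adjusted p = 1). Neither pair of groups overlaps, and WT averaged 119 CPM for Rb1.

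Targets of p53 had 24 tested genes, of which 20 had a positive log2 fold change, 3 were higher and 0 lower past the unadjusted threshold, and the median was 0.25. Without V replicate 2 that median was 0.15. Over all genes, 7436 of 14702 were positive and 2.29% were higher past that threshold. Ccng1, cyclin G, had 91.4, 87.0 and 83.2 CPM in V, against 39.8, 61.4 and 36.7 CPM in KO (log2 fold change 0.92, SE 0.28, edgeR adjusted p = 0.744). Pmaip1, the pro-apoptotic BH3 protein NOXA, had 159, 122 and 162 CPM in V, against 88.6, 113 and 79.1 CPM in KO (log2 fold change 0.66, edgeR adjusted p = 0.752). Bbc3, the BH3 protein PUMA named after its values were seen, had 27.0, 16.1 and 26.9 CPM in V, against 7.38, 8.27 and 7.18 CPM in KO (log2 fold change 1.62, edgeR adjusted p = 1). All V libraries were above all KO libraries for these 3. In the BCL2 family, with 14 tested genes, Pmaip1 and Bbc3 were the higher members and Bmf, another BH3 gene, the lower one (49.9, 48.8 and 25.7 CPM in V, against 77.1, 76.5 and 75.9 CPM in KO).

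Metabolic lists were mixed. Of 28 glycolysis and pyruvate entry genes 2 were higher and 2 lower past the unadjusted threshold, with a median of -0.05. Pdk1, which limits pyruvate entry into mitochondria and is a target of hypoxia-inducible factors, had 126, 190 and 165 CPM in V, against 76.1, 114 and 94.9 CPM in KO (log2 fold change 0.76 with an SE of 0.21, edgeR adjusted p = 0.686). The groups did not overlap. The hypoxia list, with 19 tested genes, had 2 higher, Epas1 and Pdk1, 0 lower and a median of 0.16. Hif1a, the related oxygen-regulated factor, had 159, 246 and 273 CPM in V and 304, 199 and 238 CPM in KO, and Vegfa, an angiogenic target, 8.36, 29.9 and 18.5 CPM in V and 36.3, 18.7 and 35.9 CPM in KO. Both pairs of groups overlap. Nuclear-encoded respiratory chain genes (42) had 1 higher, 0 lower and a median of 0.03. The 8 tested mitochondrially encoded genes all had a positive log2 fold change, 4 of them past an unadjusted p of 0.05, with a median of 0.53. Summed over the 13 found, they stood at 27054, 13377 and 16705 CPM in V, against 12378, 16830 and 12883 CPM in KO, so V 1 is the high library and the groups overlap. Without V replicate 1 the median was 0.13, and the log2 fold changes of CYTB and ND1, subunits of the respiratory chain, were 0.21 and 0.15, against 0.58 and 0.52 with it. Cytosolic ribosomal protein genes had a median of 0.13, with 47 of 52 positive, against 7436 of 14702 over all genes. Of these ribosomal genes 1 was past the unadjusted p, Rplp0. Their sums of 43929, 32936 and 31090 CPM in V and 29081, 35746 and 32854 CPM in KO overlap, and V 1 is again the highest. Their median was -0.05 without V replicate 1.

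The lists of lysosome and autophagy (30 genes), immediate-early genes (16) and the heat shock and unfolded protein response (20) had medians of 0.05, -0.07 and 0.05. They had 0 higher and 1, 1 and 0 lower members at an unadjusted p under 0.05. The immediate-early member was Dusp1, a phosphatase that switches off MAP kinases, with 31.7, 55.7 and 24.4 CPM in V, against 60.7, 83.1 and 67.4 CPM in KO (log2 fold change -0.91, edgeR adjusted p = 1).

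**Figure D5:**
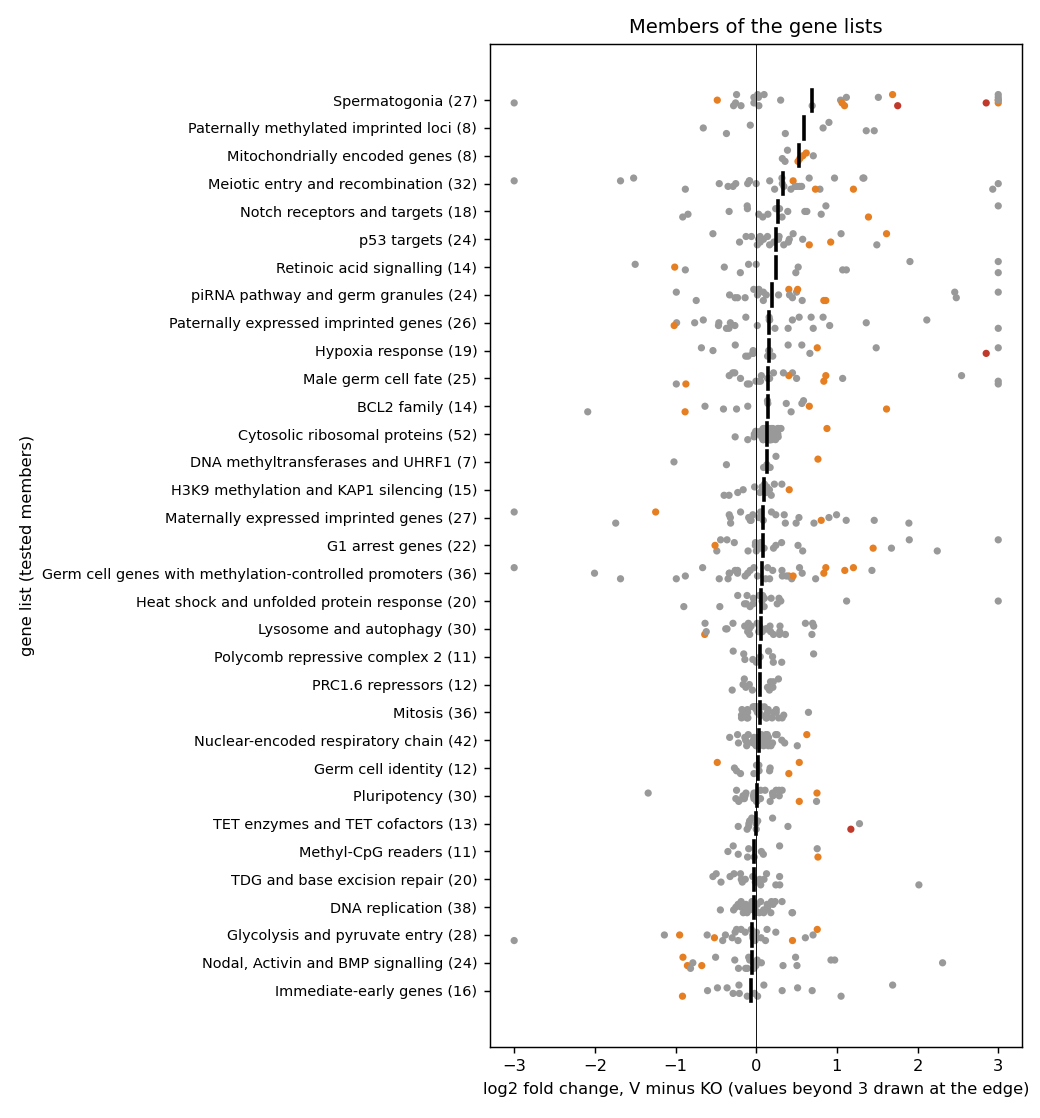
Each row is 1 of 33 gene lists with its number of tested genes, and each point is a member's log2 fold change, V minus KO, with 21 members beyond 3 drawn at the edge. Black bars are medians, red points are called and orange points have an unadjusted p under 0.05. Most medians lie near 0, the spermatogonia list is highest at 0.69, and its values spread widely.

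Some weakly expressed genes were detected in V and not in KO, or in KO and not in V. There were 57 genes with counts in every V library and 0 in every KO library, and 24 the other way round. Tmc6, a channel-related membrane protein, had 5.95, 6.47 and 4.77 CPM in V and 0 in KO, at least 137-fold higher against a floor of 3 counts over the KO group. Decr1, an enzyme of mitochondrial fatty acid oxidation, had 4.43, 5.16 and 5.87 CPM in V and 0 in KO, at least 118-fold higher. In WT, Tmc6 was at 5.26, 5.502 and 0 CPM, and Decr1 at 1.25, 0.45 and 0 CPM. Ntm, a neural adhesion molecule, was at 0 in V and had 6.01, 1.69 and 8.82 CPM in KO, at least 111-fold lower in V. It was also at 0 in every WT library. Floors cover counting error only, and with 5000 cells per library a weak transcript can be missed. These 3 genes were chosen after their values were seen, and edgeR called none of the 3.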

How the data were processed

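Raw counts for 35976 gene symbols, as deposited by the authors, were the input. STAR 2.7.10b and featureCounts 2.0.3, beside FastQC, SAMtools 1.9 and Trim Galore 0.6.7, are named in the submitters' processing notes, with builds GRCm39 and mm10 but no role for either. No source used here gives the strand setting or annotation. A column that names no sample was not used (1 column). The WT sample labelled 4 has no column under its name and was not analysed here, so 12 libraries were fitted.

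Genes passing edgeR's default filter by genotype (14702) were scaled by TMM and tested with edgeR 4.0.16 (R 4.3.3), glmQLFTest, two-sided, V minus KO, with genotype as the only term and Benjamini-Hochberg adjustment over all genes at 0.05. CPM are TMM-scaled. The common biological coefficient of variation was 0.932. Spearman correlations between libraries were 0.928 to 0.963 within genotypes and 0.928 to 0.964 between V and KO, and 0 pairs were identical. The fits were tested on simulated data.

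The members and the 42 gene lists were chosen with earlier results of these data known, and 809 of 837 listed symbols were found. Named genes are Tet1, the 12 with the smallest p in each direction, the 4 most abundant in each direction at an unadjusted p under 0.01, and from each list up to 4 called members or else the 2 with the smallest p. Predicted gene models were left out of the ranked parts. Other names are marked in the text or serve as familiar list members. Lists are described by counts and medians without a set test. Alternatives were RLE scaling, DESeq2 1.42.0, other filters, V and KO alone, a replicate block, a minimum fold of 1.5 and each library left out. Leaving out WT replicate 3 was added after seeing the data. Sequences are from RefSeq and gene positions from GENCODE M21, neither known to be the annotation used for counting.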

Additional observations from a re-analysis of the deposited data

How the results depend on the processing

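The number of called genes, 3, was 3 with RLE scaling, 2 with a stricter filter (1 CPM in 6 libraries) and 4 without WT replicate 3, which was chosen after seeing the data. It was 21 without a low-count filter and 88 with DESeq2, many of those 88 at extreme folds. With V and KO libraries alone it was 0. Against a minimum fold of 1.5 it was 0, where edgeR had 250 genes at an unadjusted p under 0.05. Leaving out 1 V or KO library gave 2 to 18, highest without V replicate 2. The stricter filter and leaving out V replicate 3 or KO replicate 1 lost Epas1, and V and KO alone and the minimum fold lost all 3 genes, while the other settings called all 3. The fit of V and KO alone rests on 6 libraries in place of 12, and other causes were not tested. Tet1 had 0.94 to 1.34 on the log2 scale with 1 library left out, and 1.18 without a call with V and KO alone.

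The replicate block gave 16 calls, 10 higher and 6 lower. Same-numbered V and KO libraries correlated at -0.145, -0.111 and -0.00107 in their deviations from the group means. These values show no pairing of V with KO by number. Differently numbered libraries and the other genotypes were not compared in this way, so a shared batch was not tested.

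Amh ran from -1.58 to 3.89, Clu from -0.56 to 2.57 and Aldh1a1 from -0.72 to 3.31, each turning negative without V replicate 2. Ren1 ran from -7.43 to 5.15, Alas2 from -8.03 to 5.12, Hba-a1 from -2.33 to 2.79 and Ftx from -0.60 to 0.36 with 1 library left out. The median log2 fold change of Sertoli markers was 1.80, and -0.12 without V replicate 2. Of the list medians under the alternatives, 483 moved by less than the spread between replicates and 19 by more. The 19 included maternally expressed imprinted genes at 0.32 without V replicate 3 and 0.46 without KO replicate 2, against 0.09, and retinoic acid signalling at 1.20 without KO replicate 2, against 0.25. PRC1.6 repressors (-0.04) and lysosome and autophagy (-0.05) turned negative without V replicate 2. Lysosome and autophagy stood at 0.15 without V replicate 3 and p53 targets at 0.15 without V replicate 2, and the others were medians of marker lists of somatic cells. Of other gene values, 1160 kept direction and side of the threshold, 64 gained a call and 6 lost it.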
